A study of Rattus norvegicus with 56 samples.

Results

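Here, 10 genes of inhibitory neurons were followed through primary rat hippocampal cultures that had received repetitive transcranial magnetic stimulation (rTMS). They comprised the GABA-synthesising enzymes Gad1 and Gad2, the vesicular GABA transporter Slc32a1, the homeobox factors Dlx1 and Lhx6, the neuropeptides Sst, Npy and Vip, the calcium-binding protein Calb2 and the secreted glycoprotein Reln. These were 10 of the 16481 genes that could be named on the array. A probe was taken as belonging to a gene when its RefSeq accession did, and the brightest of a gene's probes stood for it, so 10 of 15 matched probes were used. All 10 were well above background on 55 of 55 arrays.

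GABA is the main inhibitory transmitter of the hippocampus. Neurons make it from glutamate with the enzymes encoded by Gad1 and Gad2, and the transporter encoded by Slc32a1 loads it into synaptic vesicles. Dlx1 and Lhx6 act earlier, while interneurons are born in the ventral forebrain and migrate, and Sst, Npy, Vip and Calb2 mark subtypes of the mature cells. Reln is made by Cajal-Retzius cells and by some interneurons.

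The cultures came from hippocampi of Sprague Dawley rat embryos (embryonic day 18) and were kept in Neurobasal medium with the B27 supplement. The labels name no genetic modification, and all groups shared strain, region and medium. Dishes were set on the coil and received 1 Hz stimulation (evenly spaced pulses) or intermittent theta burst stimulation (iTBS, short bursts of pulses) at 15% of the maximum output of the machine. Sham dishes stood in the same kind of incubator with the coil about 20 cm away. RNA was taken at the end of the session (0 h) or 2, 8, 24 or 48 h later, and untreated dishes (CTR) belong to 0 h. The 55 usable arrays comprised 17 sham, 16 1 Hz, 18 iTBS and 4 untreated arrays in 16 groups of 2 to 4. The labels do not say whether the arrays of a group came from separate cultures, so the tests measure the spread between arrays, which may be technical.

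The number in each sample's description falls into 4 runs, called culture series A, B, C and D here, although the labels do not say what the number stands for. Leaving the untreated arrays out, series A held 9 arrays, B 12, C 15 and D 15. Series A was hybridised on slides 1 and 2, B on slides 3 and 4, C on slides 5 to 7, and D on all 7 slides. Differences between A, B and C therefore cannot be told apart from differences between slides, while D lay beside another series on every slide. Within each series the later times lay mostly on the later slides. Series A had no sham array at 8 or 24 h, and series B had none at 48 h. A further array, replicate 2 of the 2 h group of 1 Hz, was left out, since its spot grid was misplaced and its signals correlated at -0.01 with the mean of the remaining arrays. The other arrays had 66.1% to 81.8% of their spots well above background.

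Levels are given as scaled log2 signal, the log2 processed signal of a probe brought to a mean of 0 and a common spread on every array. A difference of 1 is close to a doubling. Levels are compared between arrays for the same gene and never between genes. In these bulk cultures, fewer cells of a type and less RNA per cell cannot be told apart.

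Sequences of the region around the annotated gene start were found for 9 of the 10 genes in RefSeq (rat assembly GRCr8), and Calb2 had no entry. They are shown for the neuropeptide genes Sst and Vip, which hold the letters of the cAMP response element, the site through which neuronal activity is known to act on somatostatin transcription. The capitals mark the motif, and each stretch has 30 bases on the plus strand. The first starts 250 bases upstream and holds the homeodomain core TAATTA, the letters bound by factors of the Dlx and Lhx families.
Sst, homeodomain core, chr11:90461296-90461325: tcagTAATTAatcatgcacctatgtggcgg
Sst, cAMP response element, chr11:90461537-90461566: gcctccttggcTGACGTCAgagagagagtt
Vip, 6 bases of the element, chr1:44470371-44470400: ggatcaccactgTGACGTctttcgaggagc
TGACGTCA, searched on both strands over 250 bases before and 50 after the start, was found in 1 of the 9 genes (Sst, from base 3 after the annotated start) and in 1.83% of all 33469 such regions. Its first 6 letters, TGACGT, which lie inside the longer motif, were in Sst and Vip and in 7.94% of all regions. TAATTA was in Sst alone of the 9 and in 5.36% of all regions, and TGANTCA, the AP-1 site, was in none of the 9 and in 7.33% of all regions. These matches describe the letters of this window and nothing about binding.

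The clearest difference among the 10 genes lay between culture series. By limma's moderated F test over the 4 series, 8 of the 10 genes differed (adjusted p under 0.05), against 75.4% of the 35694 probes tested. The 2 that did not were Lhx6 (adjusted p = 0.162) and Reln (adjusted p = 0.0506). Reln lay at the threshold and passed under 5 alternatives, namely 75th percentile scaling, quantile normalization, normexp correction, the stricter filter on dim probes and the mean of its probes. Lhx6 passed when series B was left out. Series D stood highest. Against the mean of A, B and C, 8 of the 10 were higher in D and 0 were lower, where 53% of all probes differed, 28.9% higher and 24.2% lower. The median difference of the 10 genes was 1.10. The counts are to be read against that high background.

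**Figure D1:**
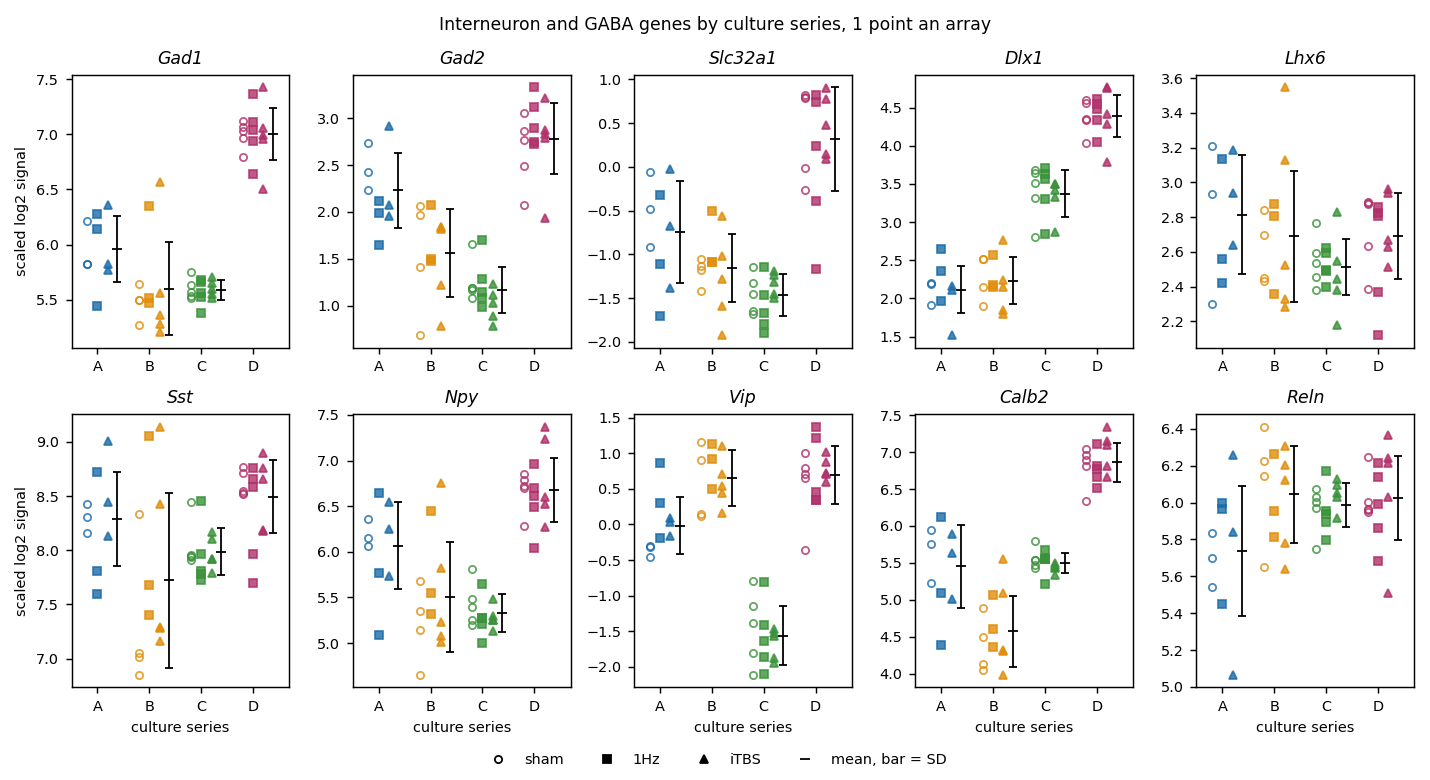
Scaled log2 signal (vertical axis) of each gene in culture series A to D (horizontal axis), 1 point for each array, with open circles for sham, squares for 1 Hz and triangles for iTBS. Black bars give the mean and SD of the series, of 9, 12, 15 and 15 arrays. All arrays of series D lie above the rest for Calb2 and Dlx1, and 14 of 15 do for Gad1, Vip is low in series C, and Lhx6 and Reln overlap in all 4 series.

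The GABA synthesis genes were higher in series D. Gad1, which encodes the enzyme that makes most of a cell's GABA, ran from 5.45 to 6.36 in series A (median 5.83), from 5.21 to 6.57 in B (median 5.50), from 5.38 to 5.75 in C (median 5.57) and from 6.51 to 7.43 in D (median 7.03). Every array of D lay above every array of A and C, and 14 of 15 lay above the highest of B. The fitted difference of D from the mean of the others was 1.29 ± 0.09 (SE, adjusted p = 3.59e-15). On the same slide, D exceeded its neighbours by 1.05 to 1.69 on all 7 slides. These slide means were not matched for time or arm.

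Gad2, whose product sits on synaptic vesicles, had a different order. Its range was 1.64 to 2.92 in series A (median 2.11), 0.68 to 2.08 in B (median 1.66), 0.78 to 1.70 in C (median 1.15) and 1.94 to 3.33 in D (median 2.83). Series C was lowest and D highest, and those 2 did not touch, while A reached into the range of D. D exceeded the mean of the others by 1.13 ± 0.12 (adjusted p = 1.96e-10), and A exceeded C by about as much, with C below A by a fitted change of -1.11 ± 0.15 (adjusted p = 2.92e-07). Gad1 fell short of that pattern, with C against A at -0.35 ± 0.12 (adjusted p = 0.0163).

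Slc32a1 was a dim probe, with a processed signal of 26.2 to 51.5 in series C and 82.4 to 341 in D. Its level ran from -1.71 to -0.02 in A, from -1.93 to -0.50 in B, from -1.90 to -1.15 in C and from -1.17 to 0.90 in D. The arrays of C and D overlapped through 1 array of D, the 1 Hz array at 48 h. The difference of D from the mean of the others was 1.43 ± 0.13 (adjusted p = 2.53e-12). It was 0.70 when the background was corrected by normexp.

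Of the homeobox factors, Dlx1, an early regulator of ventral forebrain interneurons, differed most and Lhx6 did not pass the test. Dlx1 ran from 1.52 to 2.65 in series A (median 2.16), from 1.80 to 2.77 in B (median 2.17), from 2.80 to 3.71 in C (median 3.50) and from 3.78 to 4.77 in D (median 4.42). The ranges of A and B lay together, that of C lay above both, and that of D lay above C, with no overlap between these 3 steps. D exceeded C by 1.01 ± 0.09 (adjusted p = 4.31e-12), and C exceeded B by 1.17 ± 0.10 (adjusted p = 8.70e-12). On shared slides, D was 2.50 to 2.52 above A, 2.29 to 2.34 above B and 0.77 to 0.87 above C. Time and arm were not matched in these means either.

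Lhx6, which specifies the lineage that yields somatostatin and parvalbumin interneurons, had medians of 2.93 in A, 2.61 in B, 2.50 in C and 2.81 in D. The ranges of the 4 series overlapped. Its difference of D from the mean of the others was 0.03 ± 0.09 (95% interval -0.15 to 0.21, adjusted p = 0.789), so a shift of the size seen in Dlx1 lay far outside the interval. Of its 6 comparisons between single series 0 passed in limma, and 1 had an unadjusted p under 0.05, that of C against A (-0.27 ± 0.12, adjusted p = 0.0620), as 49.8% of all probes had there.

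The subtype markers each had an order of their own. Calb2 (calretinin) ran from 4.39 to 6.12 in A, from 3.98 to 5.55 in B, from 5.21 to 5.80 in C and from 6.33 to 7.35 in D. D did not overlap with any other series and exceeded their mean by 1.71 ± 0.11 (adjusted p = 6.44e-17). B was below A by a change of -0.89 ± 0.15 (adjusted p = 2.71e-05), while C and A did not differ at this precision (0.07, 95% interval -0.20 to 0.35).

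Vip was low in series C rather than high in D. Its range was -0.46 to 0.86 in A, 0.12 to 1.16 in B, -2.11 to -0.80 in C and -0.35 to 1.38 in D. Every array of C lay below every array of the other 3 series. C was below B by a change of -2.29 ± 0.15 (adjusted p = 1.15e-14), and D against B came to 0.01 (95% interval -0.30 to 0.31, adjusted p = 0.978). D exceeded the mean of the others by 1.03 ± 0.12 (adjusted p = 1.86e-09), to which C gave a difference of 2.29 and A one of 0.80, and with normexp correction it was 0.45.

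Npy, a peptide of several interneuron subtypes, ran from 5.09 to 6.65 in A, from 4.65 to 6.75 in B, from 5.0 to 5.82 in C and from 6.04 to 7.37 in D, and D exceeded the mean of the others by 1.07 ± 0.11 (adjusted p = 7.34e-11). Sst, a peptide of dendrite-targeting interneurons, shifted least among the 8 that were called. Sst ran from 7.60 to 9.01 in A, from 6.85 to 9.14 in B, from 7.72 to 8.45 in C and from 7.70 to 8.90 in D. All 4 ranges overlapped. D exceeded the mean of the others by 0.51 ± 0.15 (adjusted p = 0.00376), but D against A was 0.23 ± 0.20 (adjusted p = 0.368).

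Reln lay lowest in series A. Reln medians were 5.83 in A, 6.13 in B, 6.01 in C and 6.0 in D, and the difference of D from the mean of the others was 0.10 ± 0.07 (95% interval -0.03 to 0.23, adjusted p = 0.200). Of its 6 comparisons between single series 2 passed, D against A (0.25 ± 0.09, adjusted p = 0.0234) and B against A (0.25 ± 0.10, adjusted p = 0.0436). Of all probes, 41.7% were called for D against A and 30.4% for B against A. Further probes had been tested for Gad1, Calb2 and Reln. In series D the further probe of Gad1 was higher by 1.74 and that of Calb2 by 1.64, the same direction as the probes used. The remaining probes of Reln gave -0.01 and 0.30, the latter with adjusted p = 0.0471.

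Other genes of the same cells were called in series D in both directions, as were all probes (28.9% higher and 24.2% lower). Among 18 tested markers of other interneuron types, 9 were higher in D and 5 lower (median difference 0.25). Pvalb, the calcium-binding protein of fast-spiking cells, was higher by 2.67 ± 0.11, Tac1, the substance P precursor, by 2.52 ± 0.09 and Crh, the corticotropin-releasing peptide, by 1.86 ± 0.21. Elfn1, a synaptic adhesion protein of somatostatin cells, differed by -1.83 ± 0.14, Cort by -0.54 ± 0.10 and Erbb4, the neuregulin receptor, by -0.40 ± 0.11. All 6 passed the test at adjusted p under 0.05.

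Of 13 tested interneuron transcription factors, 5 were higher and 4 lower in D (median 0.18), shares near those of all probes. The higher ones with the largest differences were Nkx2-1, which marks the medial ganglionic eminence (1.63 ± 0.14), Sp9 (1.09 ± 0.15) and Npas1 (1.08 ± 0.10). The lower ones were led by Sox6 (-1.95 ± 0.10) and Nr2f2 (-0.56 ± 0.08). Dlx2, the neighbour and partner of Dlx1, gave 0.20 ± 0.21 and did not pass. Dlx5 and Dlx6 were not matched to a probe. Of 8 genes of GABA handling, 1 was higher (Slc38a1, 0.33 ± 0.14) and 3 were lower. These 3 were Abat (-0.95 ± 0.08) and Aldh5a1 (-0.88 ± 0.08), which break GABA down, and the transporter Slc6a11 (-0.31 ± 0.08).

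Markers of other cells differed between the series as well, and their part in the differences above was not tested. Series D had 5 of 6 vascular and fibroblast markers higher and 0 lower, with Col3a1 at 5.72 ± 0.20 and Col1a1 at 4.82 ± 0.20. The mean of this list was 2.40 to 3.24 over the arrays of D, and -0.67 to 1.22 over those of A, B and C, so it did not overlap. It had 7 of 8 oligodendrocyte lineage markers lower and 0 higher (Mbp -3.96 ± 0.26, Pdgfra -3.35 ± 0.14), with list means of 2.87 to 4.38 in D and 4.42 to 6.95 in the rest. All 3 dividing-cell markers were lower (Mki67 -2.08 ± 0.12), with list means of 2.27 to 3.94 in D and 4.27 to 6.13 elsewhere. Excitatory neuron markers were higher in 7 of 10 and lower in 0, and of 5 pan-neuronal markers 1 was higher (Snap25, 0.69 ± 0.06). Among 5 tested Cajal-Retzius markers 4 were higher, the largest being Nhlh2 (0.92 ± 0.15). Of these 4, Cxcr4 was above background on 55 arrays, Lhx1 on 49, Nhlh2 on 31 and Ebf3 on 8. The 75th percentile of processed signal overlapped between D (3236 to 9939) and the other series (1896 to 18416).

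Stimulation itself made no call among the 10 genes. At each of 5 times, 1 Hz and iTBS were compared with sham in the fit that held the 16 groups and the series, which gave 100 tests. Of these, 0 reached an adjusted p under 0.05 in limma, against 0.00112% of the tests of all probes, and 7 had an unadjusted p under 0.05, against 3.74% of the tests of all probes. The 100 differences lay between -0.75 and 0.73, with SEs of 0.15 to 0.41.

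**Figure D2:**
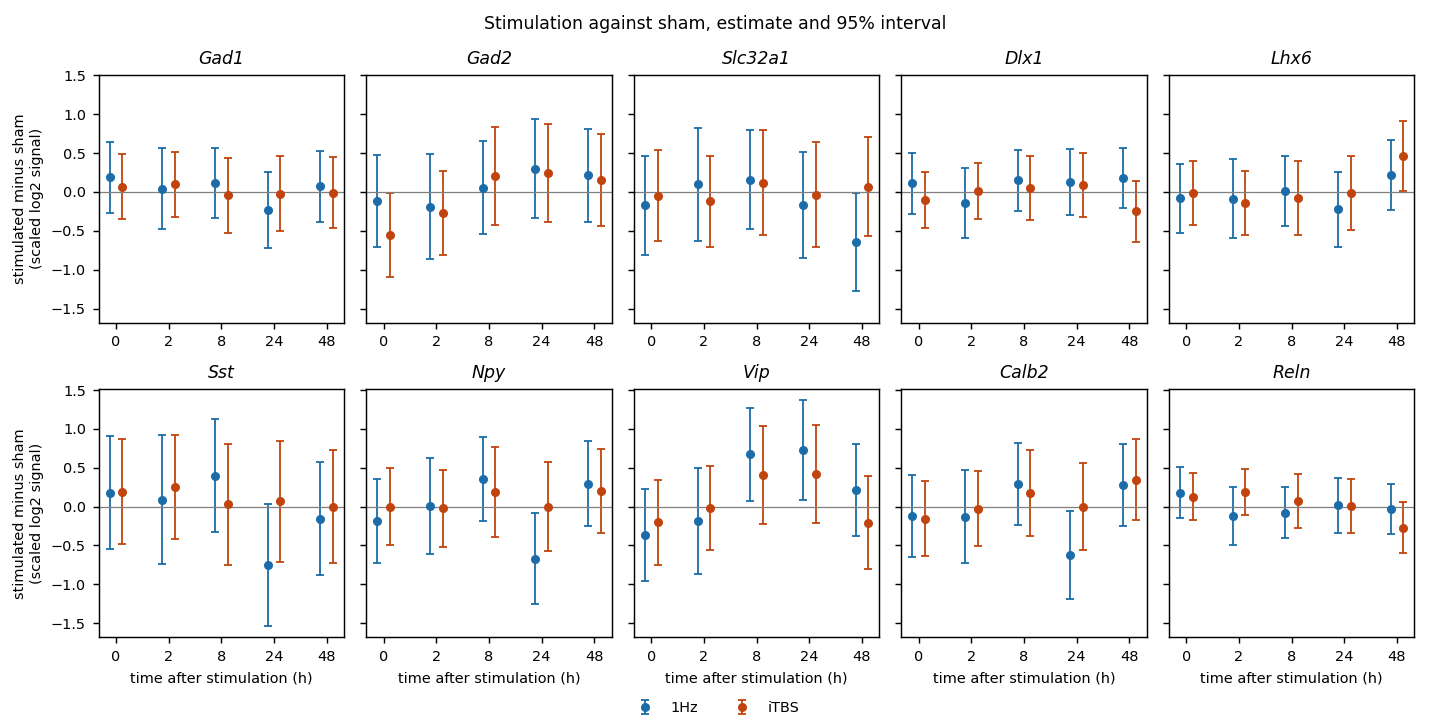
Difference of stimulated from sham cultures in scaled log2 signal (vertical axis) at each time in hours (horizontal axis), for 1 Hz (blue) and iTBS (red). Points are the fitted differences and bars their 95% intervals, which for most tests cross 0. Slc32a1 at 48 h and Npy and Calb2 at 24 h lie below 0 for 1 Hz and Vip at 24 h lies above it, with no adjusted p under 0.05.

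Averaged over the times, the intervals were narrower. The 10 differences lay between -0.15 (Slc32a1) and 0.21 (Vip) for 1 Hz, and between -0.05 (Gad2) and 0.11 (Sst) for iTBS. The 95% intervals of Gad1 were -0.18 to 0.25 for 1 Hz and -0.18 to 0.22 for iTBS, and those of Reln were -0.16 to 0.14 and -0.12 to 0.17. Over the 10 genes the intervals reached from -0.44 to 0.49 for 1 Hz and from -0.31 to 0.43 for iTBS. By limma 0 of the 10 genes passed for either protocol, against 0% of all probes. At an unadjusted p under 0.05 the count was also 0, against 1.28% of all probes for 1 Hz and 1.19% for iTBS.

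The 7 small unadjusted p-values are given with their arrays, because the series make up each group differently. Slc32a1 at 48 h was -0.48, -1.33 and -0.26 in sham (series A, C and D) and -1.71, -1.09, -1.90 and -1.17 after 1 Hz (A, B, C and D). The 1 Hz array was lower in all 3 series that had both, with differences of -1.22, -0.57 and -0.91. The fitted change was -0.64 ± 0.31 (limma adjusted p = 0.857). After iTBS the 4 values were -1.38, -0.56, -1.23 and 0.15, on both sides of sham.

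Of the 7, 3 concerned 1 Hz at 24 h, where 1 of the 3 arrays came from series A, which had no sham at that time. Npy at 24 h was 5.68, 5.20 and 6.73 in sham (B, C and D) and 5.09, 5.0 and 6.04 after 1 Hz (A, C and D), a fitted change of -0.67 ± 0.29 (adjusted p = 0.967). In series C and D, where sham and 1 Hz could be set side by side, the differences of Npy were -0.20 and -0.69. Calb2 at 24 h was 4.89, 5.48 and 7.04 in sham (B, C and D) and 4.39, 5.55 and 6.51 after 1 Hz (A, C and D), a fitted change of -0.62 ± 0.28. Its side-by-side differences had opposite signs, 0.068 in C and -0.53 in D. Vip at 24 h was 0.15, -2.11 and 0.79 in sham and -0.19, -0.81 and 1.22 after 1 Hz, a fitted change of 0.73 ± 0.32, and the 1 Hz array was higher by 1.3 in C and 0.43 in D. Calb2 and Vip had the same adjusted p as Npy.

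The remaining 3 were Vip at 8 h after 1 Hz (0.67 ± 0.29, adjusted p = 1.00), Gad2 at 0 h after iTBS (-0.55 ± 0.27, adjusted p = 0.541) and Lhx6 at 48 h after iTBS (0.46 ± 0.22, adjusted p = 0.914). For Gad2 the iTBS arrays were 2.08, 1.82, 0.78 and 1.94 and the sham arrays 2.73, 2.06, 1.17 and 2.87 in series A, B, C and D. The iTBS array was lower in all 4 series, and most so in D. The other 2 were mixed between series. Vip at 8 h was 0.12, -1.80 and -0.35 in sham (B, C and D) and 0.86, 0.49, -1.86 and 0.45 after 1 Hz (A, B, C and D), with differences of 0.37 in B, -0.057 in C and 0.80 in D. Lhx6 at 48 h was 2.30, 2.60 and 2.39 in sham (A, C and D) and 2.94, 3.55, 2.44 and 2.63 after iTBS (A, B, C and D), with differences of 0.64 in A, -0.15 in C and 0.24 in D.

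Compared with each other, iTBS and 1 Hz differed in 0 of 50 tests after adjustment, against 0.00168% over all probes, and in 5 before it, against 3.63%. The largest difference was that of Sst at 24 h. Sst was 7.60, 7.72 and 7.96 after 1 Hz (A, C and D) and 8.43, 8.10 and 8.66 after iTBS (B, C and D), while sham stood at 8.34, 7.94 and 8.71 (B, C and D). The arrays of the 2 protocols did not overlap, and those of iTBS and sham did. The fitted difference was 0.82 ± 0.39 (adjusted p = 0.970 by limma), and 1 Hz minus sham was -0.21 in C and -0.75 in D.

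Untreated dishes at 0 h served as the background for sham handling. The 4 untreated arrays came from series A and C alone, 2 from each, while sham at 0 h had 1 array in each series. The differences of untreated from sham lay between -0.17 (Dlx1) and 0.22 (Lhx6), 0 of the 10 passed against 0.0056% of all probes, and 0 had an unadjusted p under 0.05, against 4.49%.

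Time in culture after the session was then examined over all arms. By the F test 4 of the 10 genes changed with time (Dlx1, adjusted p = 0.00452, Reln 0.0138, Npy 0.0173 and Slc32a1 0.0328), close to the 27% of all probes that did. At 48 h against 0 h, 2 of the 10 were lower and 0 higher, where 13.4% of probes were lower and 13.6% higher. With slide as a block in addition to series, 1 of the 10 passed (Npy), against 20.7% of all probes. Without the series in the model 0 did, against 8.16%.

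Dlx1 was lower at 48 h, with a fitted change of -0.45 ± 0.11 (adjusted p = 0.00201). In series C the arrays ran from 3.50 to 3.64 at 0 h and from 2.80 to 2.86 at 48 h, and in D from 4.54 to 4.77 and from 3.78 to 4.05. The 2 times did not overlap in either series. In A they ran from 1.91 to 2.11 and from 1.52 to 2.65, and in B from 1.84 to 2.57 and from 1.80 to 2.14, so that in A the 48 h arrays reached to both sides of the range at 0 h, and in B one array lay below that range and another within it. Within slide 7, the 2 arrays of C at 24 h stood at 3.56 and 3.42 and the 3 at 48 h at 2.84, 2.80 and 2.86. With slide as a block the change was -0.15 (adjusted p = 0.643).

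Reln was lower by 24 h (-0.28 ± 0.10, adjusted p = 0.0458) and at 48 h (-0.31 ± 0.09, adjusted p = 0.00932). In series B the 3 arrays at 0 h ran from 6.15 to 6.27, the 2 at 24 h from 5.64 to 5.65 and the 2 at 48 h from 5.78 to 5.82, with no overlap. In C the arrays ran from 6.01 to 6.17 at 0 h and from 5.75 to 6.05 at 48 h, and in D from 5.95 to 6.37 and from 5.51 to 6.25, with overlap in both. In A they ran from 5.83 to 5.84 at 0 h and from 5.065 to 5.97 at 48 h, on both sides of the 0 h range. With slide as a block, Reln did not pass the F test over time. Another Reln probe gave -0.34 ± 0.10 at 48 h (adjusted p = 0.0110), and the remaining one gave -0.18 ± 0.18 (adjusted p = 0.487).

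Npy was 0.38 ± 0.15 higher at 48 h (adjusted p = 0.0547), and Slc32a1 differed by -0.24 ± 0.18 (adjusted p = 0.343) although its F test passed. Gad1 showed a split between probes. The probe used gave 0.13 ± 0.13 at 48 h (adjusted p = 0.496), while the dimmer probe, above background on 47 arrays, gave -0.63 ± 0.21 (adjusted p = 0.0205). A direction over time for all series together is therefore not given for Gad1.

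Over the same 48 h, Pvalb rose by 1.50 ± 0.15 (adjusted p = 2.02e-09), and Nos1, the neuronal nitric oxide synthase, changed by -0.89 ± 0.16, Erbb4 by -0.74 ± 0.16 and Cort by -0.53 ± 0.13. In all, 3 of the 18 markers of other interneuron types were higher at 48 h and 5 lower, where 13.6% of all probes were higher and 13.4% lower. Of the 13 transcription factors 0 passed in either direction, Dlx2 among them (-0.54 ± 0.29, adjusted p = 0.165). Of the 8 GABA handling genes 4 were higher and 0 lower, led by Glul, the glutamine synthetase of astrocytes (1.01 ± 0.16), and Aldh5a1 (0.66 ± 0.12). Astrocyte markers were higher in 5 of 7 (Gfap 1.64 ± 0.22, S100b 1.03 ± 0.12). Of 5 pan-neuronal markers 2 were lower, Map2 (-0.64 ± 0.19) and Tubb3 (-0.63 ± 0.20), and 0 higher (median -0.19). The part of these in the changes of Dlx1 and Reln was not tested. Cajal-Retzius markers, which bear on Reln, were lower in 2 of 5 (Cxcr4 -0.76 ± 0.16 and Nhlh2 -0.58 ± 0.21), and Lhx1 at -0.41 ± 0.18 did not pass. Nhlh2 was above background on 31 arrays only.

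In sham cultures alone, 0 of the 10 genes passed the F test over time, against 3.3% of all probes, and 1 had an unadjusted p under 0.05, against 16.1% of all probes. That gene was Vip (limma adjusted p = 0.292). Dlx1 at 48 h in sham was -0.43, close to its value over all arms, of which the same sham arrays are a part. There were 3 sham arrays at 48 h.

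The course over time differed between the series for 6 of the 10 genes. In a fit of the stimulated and sham arrays with an interaction of time and series, Sst (adjusted p = 1.85e-05), Gad1 (0.000566), Npy (0.00864), Slc32a1 (0.0194), Lhx6 (0.0214) and Calb2 (0.0215) passed, against 35.9% of all probes. Gad2 (0.0568), Vip (0.0866), Dlx1 (0.157) and Reln (0.634) did not.

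**Figure D3:**
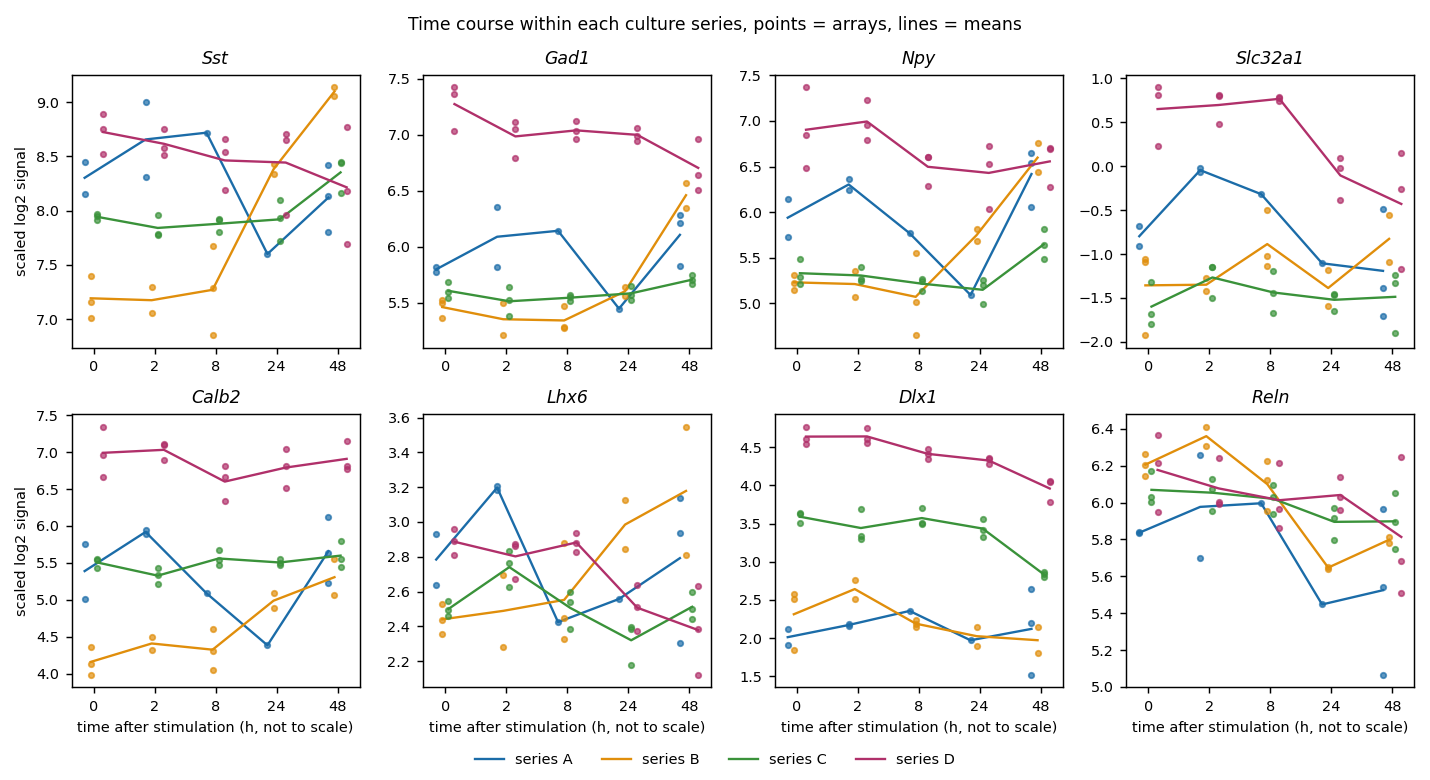
Scaled log2 signal (vertical axis) against time after stimulation in hours (horizontal axis, evenly spaced) for 8 genes. Points are arrays of all arms, lines join the means of culture series A (blue), B (orange), C (green) and D (purple), and series A has a single array at 8 h and at 24 h. Sst rises in B from 7.19 at 0 h to 9.10 at 48 h while in D its mean goes from 8.73 to 8.22, and Dlx1 is lower at 48 h in C and D.

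Sst gave the widest contrast. In series B its arrays stood at 7.01 to 7.40 at 0 h, 6.85 to 7.68 at 8 h, 8.34 to 8.43 at 24 h and 9.06 to 9.14 at 48 h. The 24 and 48 h arrays lay above all earlier ones of B. Those at 24 h were sham and iTBS and those at 48 h were 1 Hz and iTBS, so B had no sham array at 48 h. The iTBS array of B at 48 h had the lowest share of spots above background of the arrays used (66.1%). All of B's 24 and 48 h arrays were on slide 4, where its 8 h arrays stood at 7.68 and 7.28, so the step was present within a slide. In series D the means were 8.73 at 0 h and 8.22 at 48 h, in C 7.94 and 8.35, and in A 8.30 and 8.12. The 48 h mean minus the 0 h mean was thus 1.91 in B, 0.41 in C, -0.18 in A and -0.51 in D.

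Gad1 and Npy followed the same series. Gad1 in B was 5.36 to 5.52 at 0 h and 6.35 to 6.57 at 48 h, and in D 7.03 to 7.43 and 6.51 to 6.97, so that the times did not overlap in either series and ran in opposite directions. This holds for the probe used. With the mean of its probes, Gad1 was not called on time by series. Npy in B was 5.15 to 5.32 at 0 h and 6.44 to 6.75 at 48 h, and in D 6.49 to 7.37 and 6.27 to 6.70. Calb2 in B went from 3.98 to 4.36 at 0 h to 5.06 to 5.55 at 48 h, and in C and D the 2 times overlapped. Lhx6 in B was 2.36 to 2.53 and then 2.81 to 3.55, against 2.81 to 2.96 and 2.12 to 2.63 in D.

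Slc32a1 differed through series D. It stood at 0.23 to 0.90 at 0 h, 0.75 to 0.79 at 8 h, -0.39 to 0.09 at 24 h and -1.17 to 0.15 at 48 h in D, and at -1.79 to -1.32 and -1.90 to -1.23 at 0 and 48 h in C. Without series B, Slc32a1 was the single gene of the 10 still called on time by series, against 10.6% of all probes. Without series D it was Sst, against 14.9%. Without the iTBS array of series B at 48 h (replicate 2), 3 of the 10 were called.

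The arrays also varied together beyond group and series. After the means of the 16 groups and the series were taken out, the deviations of Gad1, Slc32a1, Sst, Npy, Calb2 and Lhx6 correlated with each other over 55 arrays at Pearson's r of 0.33 to 0.80 (15 pairs, median 0.63). Npy with Calb2 (0.80) and Gad1 with Sst (0.78) were highest. Gad2 ran against all 6, with r of -0.50 to -0.32, and its r with Gad1 was -0.49. In the plain levels, where series D raises both, Gad1 and Gad2 correlated at 0.66. These points share slide and series, and courses that differ between series remain in them. The 6 genes are also those called on time by series. One array, iTBS of series B at 48 h (66.1% of spots above background), deviated upwards in all 6. Its deviations were 0.86 for Gad1, 1.15 for Sst, 0.89 for Npy, 0.65 for Calb2, 0.60 for Slc32a1 and 0.67 for Lhx6. For Gad2 its deviation was -0.84. The part of this array in the correlations was not tested. Array quality moved with the same 6 genes. Against the percentage of spots above background, the deviations of the 6 genes correlated at r of -0.45 (Gad1), -0.44 (Sst), -0.41 (Npy), -0.36 (Slc32a1), -0.35 (Lhx6) and -0.31 (Calb2), and those of Gad2 at 0.29. Against the log2 75th percentile of signal the 6 lay between -0.39 (Sst) and -0.075 (Calb2), with Gad2 at 0.27. The part of these array measures in the correlations between genes was not tested.

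**Figure D4:**
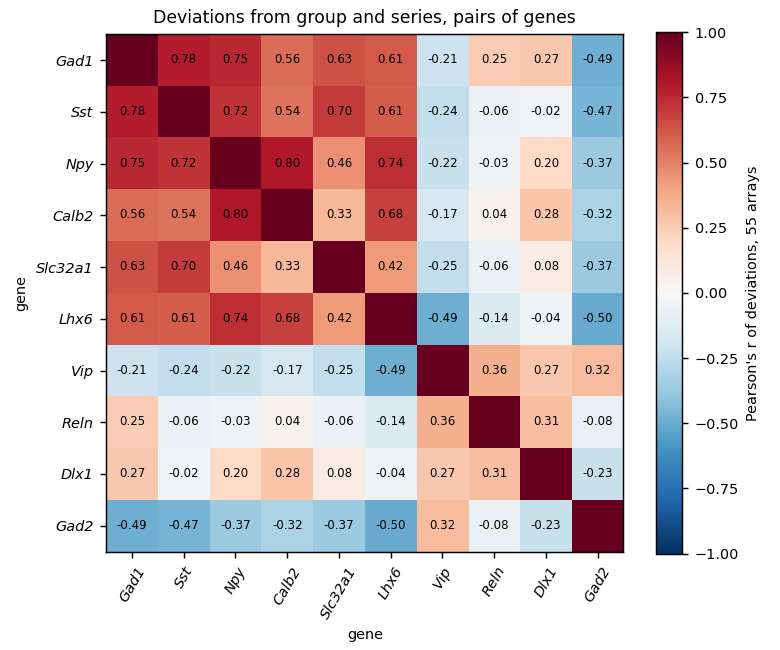
Pearson's r, over 55 arrays, between the deviations of each pair of genes from their group and series means, on a colour scale from -1 (blue) to 1 (red), with both axes listing the 10 genes. Gad1, Sst, Npy, Calb2, Slc32a1 and Lhx6, the 6 genes called on time by series, form a block of positive values from 0.33 to 0.80. Gad2 is negative with all 6.

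The gene most like each of the 10 over the 55 arrays was read from levels that include the differences between series. Dlx1 was closest to Col1a2 (r = 0.93), a collagen of fibroblasts, Gad1 to Igf1 (0.92) and Calb2 to Rab3b (0.95). Npy was closest to Slc30a3 (0.94), the zinc transporter of synaptic vesicles, Gad2 to Grm7 (0.91) and Slc32a1 to Znrd2 (0.90). Vip was closest to Megf10 (0.89), Lhx6 to Cnpy3 (0.87), Sst to Vamp2 (0.83) and Reln to Epha3 (0.68). Among the 3 closest probes were also Lhx8 for Gad1 (0.91) and the Cajal-Retzius marker Lhx1 for Reln (0.66). For these levels the highest 5% of all tested probes began at r of 0.31 for Reln and 0.71 for Calb2, and a high r here describes these arrays alone. After group and series means were taken out, other genes came first, such as Creb3l2 for Gad1 (0.82) and Carf for Dlx1 (0.77).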

How the data were processed

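The authors hybridised Cy3-labelled cRNA, made from total RNA of rat cultures, to single-colour Agilent 8x60K rat arrays and extracted the spots with Feature Extraction 12.0.3.1 (protocol GE1_1200_Jun14, header build rn4). The deposited processed signal is a background-corrected intensity per spot, not normalized between arrays. The deposited score per probe in the matrix of the authors is a z-score of the log10 processed signal within each array, and the 2 agreed to 0.00500. The authors' methods used z-ratios between groups, which were not used here.

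Spots were averaged per probe without outlier-flagged spots, and log2 intensities of the deposited signals were z-scored within each array and brought to a common SD of 4.06, the median over arrays. Of 45178 probes with values, 35694 were well above background on at least 3 arrays and were tested, and 9484 were not. RefSeq accessions without versions named 20929 probes (46.3%). limma 3.58.1 (R 4.3.3) fitted 16 groups plus culture series on 55 arrays with 36 residual degrees of freedom, and time by series on the arrays without the untreated ones with 21. Benjamini-Hochberg adjustment ran over all tested probes with a threshold of 0.05. On simulated data for 48 h against 0 h over 35694 probes, 75 of 100 changes of 1 and 100 of 100 changes of 2 were recovered. The number of arrays limits the precision. The 10 genes, all reported, and the other lists (112 genes, 104 tested) were chosen with earlier results of these data known. Up to 3 genes per direction were to be named from each other list (some are not reported here), and the 3 most alike genes per member were computed. Dlx2, Lhx1, Map2 and Tubb3 were named after their values were seen. Alternatives were other scalings (75th percentile, quantile), normexp on the median spot and background signals (offset 50, since no mean-signal column was given), other filters, slide or title replicate number as a block, the authors' scores, means of a gene's probes, and each array left out.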

Additional observations from a re-analysis of the deposited data

Results flagged for a closer look

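Time courses that differed between culture series were picked out by the interaction of time and series for Sst (adjusted p = 1.85e-05), Gad1 (0.000566), Npy (0.00864), Slc32a1 (0.0194), Lhx6 (0.0214) and Calb2 (0.0215), all by limma over 35694 probes. Sst changed by 1.91 from 0 to 48 h in series B and by -0.51 in D, Gad1 by 1.00 in B and by -0.57 in D, and Slc32a1 by 0.53 in B and by -1.08 in D. Series B had no sham array at 48 h. With the mean of its probes, Gad1 was not called.

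In groups of 4 arrays, 3 of 80 sets of levels held an array far from the rest, and chance alone picks out about 1 in 20. The iTBS array of series D at 48 h had the highest Calb2 (7.14, the others 5.45 to 5.63). The iTBS array of series B at 48 h had the highest Sst (9.14, the others 8.13 to 8.18). The 1 Hz array of series C at 8 h had the lowest Vip (-1.86, the others 0.45 to 0.86). The Calb2 and Vip arrays lay within the range of the other arrays of their culture series, and the Sst array lay above the other arrays of series B, the next of which stood at 9.06.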

How the results depend on the processing

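No call on stimulation, on the average over times, on untreated cultures or on time in sham appeared among the 10 genes under any alternative with 55 arrays or fewer. With all 56 arrays, the badly gridded one included, 9 calls appeared for stimulation and 8 for iTBS against 1 Hz, and time over all arms and time by series fell to 0 each. Of all probes, 7.88% were then called on time over all arms and 2.73% on time by series. The shares of all probes for stimulation and for iTBS against 1 Hz with 56 arrays are not given here. Those calls are therefore not read as a result about the 10 genes. The count over all arms (4) was 0 with no culture series in the model, 1 with the replicate block and 1 with slide as a block. The shares of all probes were 8.16%, 14.4% and 20.7% in the same order. Title replicate numbers did not pair the arrays: deviations of same-numbered arrays correlated at 0.16 on average (lowest -0.46), against 0.40 within a culture series. Added after seeing the data, leaving out series D gave 1 for time over all arms and 1 for time by series, and leaving out series B gave 2 and 1, with fewer arrays fitted. Of all probes, 9.93% and 14.9% were called without D, and 19.2% and 10.6% without B. Leaving out each array in turn moved time by series (6) between 3 and 8, lowest without iTBS at 48 h replicate 2, time over all arms between 3 and 4, and culture series between 8 and 9. Time by series could not be fitted without the only array of series A at 8 or 24 h, and the block of series at each time was not run.

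The reversals were of values without a call. For 48 h against 0 h, Gad2 (-0.0035) was 0.074 with no series or with the replicate block, 0.046 with normexp, 0.013 with 56 arrays and 0.26 without series B. Vip (0.066) was -0.022 with no series or the replicate block, -0.25 with slide, -0.0038 with 75th percentile scaling and -0.11 without series D. Lhx6 (0.0052) was -0.038 with 75th percentile scaling and with quantile normalization, -0.058 with normexp, -0.028 with 56 arrays, -0.012 with the authors' scores and -0.17 without series B, and in series D (0.031) it was -0.14 with 56 arrays. Gad1 was -0.25 with the mean of its probes and -0.10 without series B, Sst -0.10 without series B, and Slc32a1 0.088 without series D. Leaving out single arrays, Gad2 ran from -0.11 to 0.12, Vip from -0.017 to 0.16 and Lhx6 from -0.087 to 0.071, and Lhx6 in series D from -0.00098 to 0.089.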

Other observations

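Activity-regulated genes were also called between the culture series, where 28.9% of all probes were higher in D and 24.2% lower. Of 15 tested, 9 were higher in series D than in the mean of A, B and C and 3 lower, with Fosb at 2.25 ± 0.37, Fos at 1.55 ± 0.36 and Egr1 at 1.44 ± 0.35 above, and Arc at -1.16 ± 0.12, Vgf at -0.56 ± 0.10 and Nptx2 at -0.36 ± 0.07 below. The Fosb probe was above background on 36 arrays only. At 48 h against 0 h, 0 of the 15 passed, against 13.6% of all probes higher and 13.4% lower. The mean of the list ran from 2.47 to 3.49 in D, from 2.23 to 4.61 in A, from 2.17 to 3.55 in B and from 1.25 to 2.42 in C.

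Of 6 tested microglial markers, 3 were higher in series D and 2 lower, and 0 passed at 48 h. With lists this short, such counts are not set apart from the shares of all probes. Of 7 astrocyte markers, 3 were higher in D (Gfap 2.19 ± 0.16) and 2 lower. Of 10 excitatory neuron markers, 3 were lower at 48 h (Tbr1, Prox1 and Neurod1) and 0 higher. Over the same 48 h, vascular and fibroblast markers had 1 higher (Lum) and 1 lower (Col1a1), and 0 of 8 oligodendrocyte lineage markers and 0 of 3 dividing-cell markers passed.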
